A study of Mus musculus with 2 samples.

Results

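Glutathione transferases, glutathione peroxidases, peroxiredoxins, the thioredoxin family and superoxide dismutases were compared between untreated mouse urogenital sinus mesenchyme (UGM) cells and UGM cells given testosterone and estradiol-17β (T+E2). The members were all genes with a symbol beginning Gst (classes alpha, kappa, mu, omega, pi, theta and zeta), Mgst, Gpx, Prdx, Txn or Sod for which a probe set named that gene alone. There were 55 such genes among 18193 named on the array. Genes that reached a log2 intensity of 5, termed the floor, on either array counted as measured. Of the 55 members, 38 were measured, 36 of them on both arrays and 2 (Gsta4 and Sod3) on 1 array only.

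The UGM, the fetal stroma around the epithelium from which the prostate buds, came from male C57BL/6 mice of age day 16, as the labels give it. Both cultures grew in RPMI with serum stripped of its steroids on charcoal and with the antibiotic Plasmocin, and the treated culture also received 12 nM testosterone and 120 pM estradiol. One array was hybridised per condition, so no difference below has a replicate check or a p-value, and its precision is limited by that single array a side. The treatment lasted 72 h by the protocol, although the titles carry 24 h. The descriptions also record confluent cells for the untreated culture and cells short of confluence for the treated one, whereas the growth protocol gives 1 density for both. If the descriptions hold, density and hormone cannot be told apart. Whether embryos were pooled is not stated in the labels.

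These enzymes share the work of disposing of peroxides, superoxide and reactive electrophiles. Superoxide dismutases turn superoxide into hydrogen peroxide, which glutathione peroxidases and peroxiredoxins reduce to water with electrons drawn from glutathione or from thioredoxin. Thioredoxin reductases return thioredoxin to its reduced form with NADPH, and glutathione transferases join glutathione to electrophiles such as lipid aldehydes. Many of these genes are known targets of the transcription factor Nrf2, which binds the antioxidant response element in their promoters.

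Among the 38 measured members, Gsta3 alone was 2-fold or more higher with T+E2 (1 gene), Gsta4, Mgst3 and Gstz1 were 2-fold or more lower (3 genes), and 34 genes lay between. Of all 10267 measured genes, 4.96% lay 2-fold or more above and 4.01% 2-fold or more below the untreated level, against 2.63% and 7.89% of the members, and these member shares rest on 1 and 3 genes. The median log2 difference, T+E2 minus untreated, was -0.14 over the members (interquartile range -0.34 to 0.19) and 0.07 over all measured genes (-0.32 to 0.45). In 23 members (60.5%) the T+E2 array was below the untreated array, against 43.7% of all measured genes, and in 15 (39.5%) it was above, against 55.8%.

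The sign was the same for every measured gene of 3 classes. All 4 measured glutathione peroxidases and all 3 measured peroxiredoxins were lower with T+E2, and all 3 superoxide dismutases were slightly higher, with Gpx7 moving to 0.00 once a trend on gene length was removed. Within the thioredoxin family the 2 thioredoxins were lower and the 3 reductases higher, though Txnrd1 and Txnrd2 turned below 0 without that trend. None of these classes held a member at 2-fold. Gpx7 (-0.16), Prdx4 (-0.21) and Txn1 (-0.10) lay inside the range of the 18 hybridization spike probe sets (-0.25 to 0.09). Sod1 (0.09) lay at its upper edge, and Sod3 reached the floor only with T+E2, so its 0.22 is a bound.

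**Figure D1:**
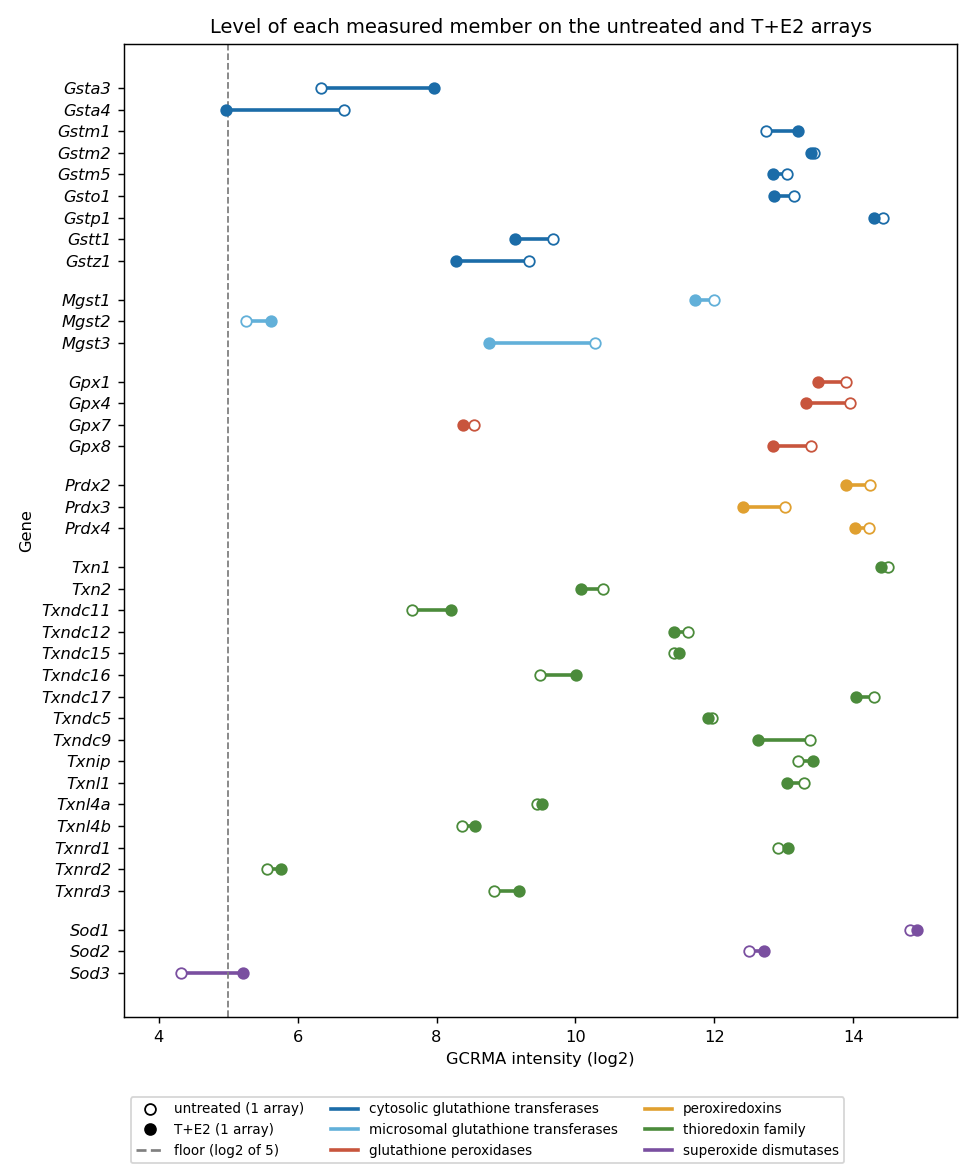
Log2 GCRMA intensity of the 38 measured members (horizontal axis) on the untreated array (open points) and the T+E2 array (filled points), coloured by class; the dashed line is the floor at 5. Gsta3 moves right from 6.34 to 7.96, Gsta4, Mgst3 and Gstz1 move left, and the measured peroxidases and peroxiredoxins all lie left of their open points by 0.63 or less.

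The promoters of Gsta3 and Mgst3 are shown because these genes lay on opposite sides of 0 at more than 2-fold. The windows run from 250 bases before to 50 after an annotated transcription start (RefSeq, GRCm38.p6), on the strand of the gene, and capitals mark the core of the antioxidant response element, TGACNNNGC, searched on both strands. The Gsta3 window is chr1:21240335-21240634 (plus strand) and the Mgst3 window is chr1:167393792-167394091 (minus strand).
Gsta3: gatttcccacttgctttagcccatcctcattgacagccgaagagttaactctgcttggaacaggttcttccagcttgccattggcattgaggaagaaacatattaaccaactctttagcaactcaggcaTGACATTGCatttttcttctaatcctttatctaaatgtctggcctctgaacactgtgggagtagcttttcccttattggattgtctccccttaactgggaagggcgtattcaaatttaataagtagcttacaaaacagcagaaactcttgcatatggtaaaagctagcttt
Mgst3: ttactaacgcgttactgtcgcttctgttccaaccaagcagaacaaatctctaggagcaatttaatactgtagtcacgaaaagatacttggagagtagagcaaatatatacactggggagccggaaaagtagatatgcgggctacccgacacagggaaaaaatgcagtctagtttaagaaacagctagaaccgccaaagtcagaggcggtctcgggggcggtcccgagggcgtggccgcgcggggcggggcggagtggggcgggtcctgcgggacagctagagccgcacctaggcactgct

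The single match in Gsta3 began 121 bases before the start, and the Mgst3 window held none. Gstz1, with 2 annotated windows, held none either. Of the 38 measured members, 34 had a promoter window, and Gsta4, Sod3, Txnl1 and Txnl4a had no entry. A match was found in 7 of the 34 (20.6%): Gsta3, Gstm5, Mgst1, Sod1, Txndc5, Txndc11 and Txnrd1. Among all 27025 genes with windows the share was 14.0%. Per window it was 7 of 45 (15.6%) in the members and 12.4% over all 32851 windows. The differences of the 7 genes ran from -0.28 (Mgst1) to 1.63 (Gsta3), and 4 of them were above 0. Androgen response elements (AGAACA, any 3 bases, TGTTC) and estrogen response elements (GGTCA, any 3 bases, TGACC), searched the same way, were in 0 of the 45 member windows. Of all windows, 16 (0.049%) and 23 (0.070%) held them. With letters that rare, 0 of 45 windows says nothing about the members. These letters say nothing of binding, inside the windows or outside them.

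Of 20 transferases with a Gst symbol on the array, grouped here as cytosolic, 9 were measured. The kappa-class Gstk1, which is not a cytosolic transferase, was among the 20 and was not measured. Their median difference was -0.20, with 1 gene at 2-fold on the upper side, 2 on the lower side and 6 between. The 2 measured alpha-class genes went opposite ways. Gsta3, an alpha-class transferase known in mice for detoxifying the epoxide of aflatoxin, stood at an intensity of 80.8 untreated and 250 with T+E2, 3.09-fold higher (log2 difference 1.63). It ranked 95th from the top of the measured genes. Its second probe set lay below the floor on both arrays (2.68 and 3.30, log2), so the difference rests on 1 probe set. The mean of both probe sets gave 0.63, but the untreated mean was under the floor and was raised to it. That 0.63 is therefore a bound and does not place Gsta3 under 2-fold.

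Gsta4, whose product conjugates the lipid peroxidation aldehyde hydroxynonenal, stood at an intensity of 101 untreated and 31.3 with T+E2. The second value is just under the floor, so Gsta4 was at least 3.17-fold lower, from its only probe set. Gstz1, the maleylacetoacetate isomerase of tyrosine breakdown, stood at an intensity of 644 untreated and 311 with T+E2, 2.07-fold lower (log2 difference -1.05). It passed 2-fold by a small margin, again on its only probe set. These 3 genes set the spread of the class.

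The other transferases differed less. Gstm1, of the mu class, was at 12.74 (log2) untreated and 13.20 with T+E2, a difference of 0.46, and its 3 measured probe sets lay between 0.37 and 0.46. The theta-class gene Gstt1 was lower, at 9.67 and 9.13 (-0.55). Gstp1, the pi-class transferase, was at 14.42 and 14.30 (-0.12). Gsto1, which also reduces dehydroascorbate, and the mu-class genes Gstm2 and Gstm5 had differences of -0.28, -0.04 and -0.20. Mu-class genes are close copies of each other, so probe sets of 1 may pick up another.

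The mu-class genes also neighbour each other in the RefSeq table, in the order Gstm5, Gstm7, Gstm6, Gstm3, Gstm2, Gstm1, Gstm4. Gstm5, Gstm2 and Gstm1 were measured, and the other 4 lay under the floor on both arrays. Gstm7 came nearest of all members left out, at 2.76 untreated and 4.35 with T+E2, while Mgst2 (5.26 and 5.61) and Sod3 (4.32 and 5.22) were the measured members closest to the floor. The remaining unmeasured transferases, Gsta2, Gstk1, Gsto2, Gstp3, Gstt2, Gstt3 and Gstt4, were at 3.90 or less.

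The 3 microsomal transferases, membrane proteins of another protein family, had a median of -0.28. Mgst3, which has both transferase and peroxidase activity, stood at an intensity of 1248 untreated and 431 with T+E2, 2.90-fold lower (log2 difference -1.53). It ranked 88th from the bottom of the measured genes. Its second probe set was under the floor on both arrays, and the mean of both gave -0.76, under 2-fold. Mgst1, found in the endoplasmic reticulum and outer mitochondrial membranes, was at 12.00 and 11.72 (-0.28). Mgst2, a leukotriene-forming relative, was higher by 0.36 close to the floor.

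**Figure D2:**
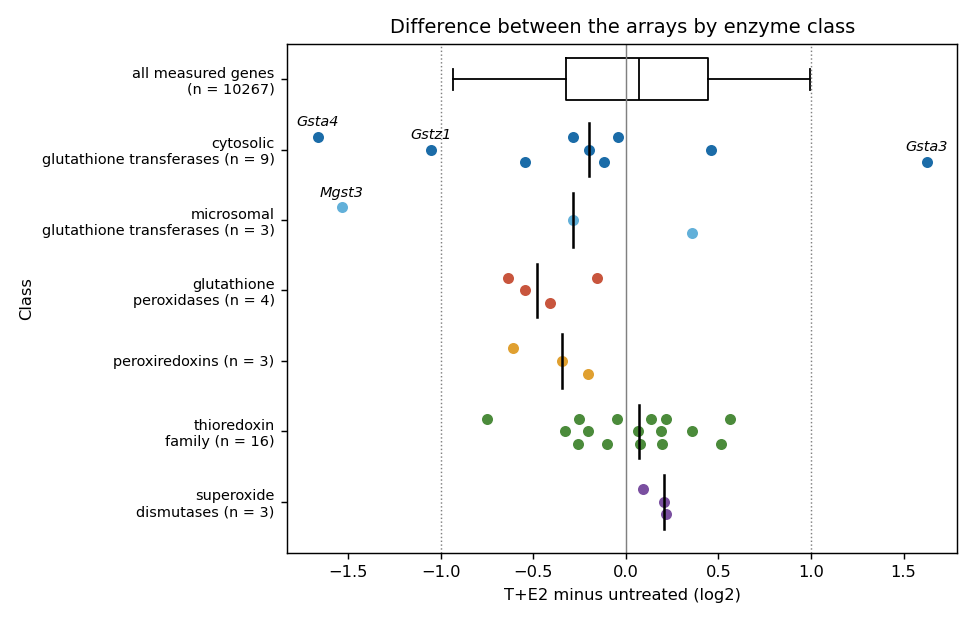
Log2 difference, T+E2 minus untreated, of each measured member by class (points; black bars are class medians), under a box of all 10267 measured genes (line, median; box, interquartile range; whiskers, 5th to 95th percentile). Dotted lines mark 2-fold; Gsta3 lies beyond the upper one and Gsta4, Mgst3 and Gstz1 beyond the lower one.

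Of 8 glutathione peroxidases, 4 were measured and all were lower with T+E2, with a median of -0.48. Gpx4, which reduces phospholipid hydroperoxides in membranes and restrains ferroptosis, was at 13.96 untreated and 13.32 with T+E2 (-0.63). A second Gpx4 probe set gave 12.75 and 11.64, a difference of -1.11, beyond 2-fold. The brighter of the pair carries the suffix for probes shared with other transcripts, and the RefSeq table holds 2 Gpx4 pseudogenes, so part of its signal may not be Gpx4. Gpx8, a peroxidase of the endoplasmic reticulum, was at 13.39 and 12.84 (-0.55). Gpx1, the abundant cytosolic enzyme, was at 13.90 and 13.49 (-0.41), and at -0.09 without the trend on gene length. The range of the hybridization spikes (-0.25 to 0.09) had no such trend removed, so the -0.09 is not on its scale. Gpx7, the other peroxidase of the endoplasmic reticulum, was at 8.54 and 8.38 (-0.16). Gpx2, Gpx3, Gpx5 and Gpx6 were under the floor on both arrays, at 2.16 or less.

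The 3 peroxiredoxins named alone by a probe set were all measured and all lower with T+E2, with a median of -0.34. Prdx3, the mitochondrial peroxiredoxin, differed most, at 13.02 untreated and 12.41 with T+E2 (-0.61). The cytosolic Prdx2 was at 14.24 and 13.89 (-0.34), and its other probe set gave -0.53. Prdx4, of the endoplasmic reticulum, was at 14.23 and 14.02 (-0.21), with 4 probe sets between -0.33 and -0.03. Prdx1 was named only together with the locus Gm21399, by 5 probe sets that differed by -0.22 to 0.01, and it is not counted as a member. Prdx5 and Prdx6 are not analysed here.

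Prdx2 is abundant in red blood cells, so erythroid markers were read beside it. The globin gene Hba-a2 was at 12.80 untreated and 12.00 with T+E2, lower by 0.80, while the erythroid markers Alas2, Epb42, Slc4a1 and Hba-a1 were at 2.40 or less. The 5 erythroid markers on the array summed to an intensity of 7129 and 4113, and the part of red cells in the Prdx2 difference was not tested.

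The thioredoxin family had 18 genes on the array and 16 measured, none at 2-fold, with a median of 0.07. Over all measured genes 4.96% were higher and 4.01% lower by 2-fold. Thioredoxins and their reductases lay on opposite sides of 0. Txn1, the cytosolic thioredoxin, was at 14.49 untreated and 14.39 with T+E2 (-0.10), and the mitochondrial Txn2 at 10.40 and 10.07 (-0.33). All 3 measured probe sets of Txn2 were below 0, from -0.56 to -0.33.

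Txnrd3 was at 8.82 and 9.18 (0.36), the mitochondrial reductase Txnrd2 at 5.56 and 5.75 (0.19), and the cytosolic reductase Txnrd1 at 12.92 and 13.06 (0.14). The 2 measured probe sets of Txnrd2 lay close to the floor and on opposite sides of 0. The second was at 5.17 untreated and 4.56 with T+E2, so its -0.17 is a bound. The 2 measured probe sets of Txnrd1 differed by 0.14 and 0.73. With a trend of the difference on gene length removed, described below, Txnrd1 stood at -0.13 and Txnrd2 at -0.01, so of the reductases Txnrd3 alone stayed above 0. Txnip, the thioredoxin-binding inhibitor, was at 13.21 and 13.43 (0.22), with 0.64 from its other probe set.

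Among 10 measured thioredoxin-domain and thioredoxin-like proteins, 5 were above 0 and 5 below. Txndc9, a partner of the cytosolic chaperonin, differed most of the whole thioredoxin family, at 13.38 untreated and 12.63 with T+E2 (-0.75), with -0.44 from its other probe set. The endoplasmic reticulum proteins Txndc11, at 7.64 and 8.20 (0.56), and Txndc16, at 9.50 and 10.01 (0.51), were the highest. Both were smaller without the trend on gene length, at 0.32 and 0.17, where Txnip (0.41) and Txnl4b (0.33) lay above them. The other Txndc11 probe set was under the floor on both arrays (2.14 and 2.15). The mean of both gave 0.17 for Txndc11, a bound, because the untreated mean was raised to the floor. Txndc12 and Txndc5, also of the endoplasmic reticulum, stood at -0.20 and -0.05. Txndc17 (-0.26), Txnl1 (-0.25), which associates with the proteasome, Txndc15 (0.08), Txnl4a (0.07) and Txnl4b (0.19) completed the group. Txndc2 and Txndc8 were under the floor on both arrays.

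All 3 superoxide dismutases were above 0, by small amounts. Sod2, the manganese enzyme of mitochondria, was at 12.50 and 12.71 (0.20), with 3 measured probe sets between 0.10 and 0.27. Sod1, the copper-zinc enzyme of the cytosol, was at 14.82 and 14.92 (0.09), with 3 between 0.09 and 0.27. Sod3, the extracellular enzyme, reached the floor only with T+E2, at 4.32 and 5.22, so its difference of 0.22 is a bound.

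**Figure D3:**
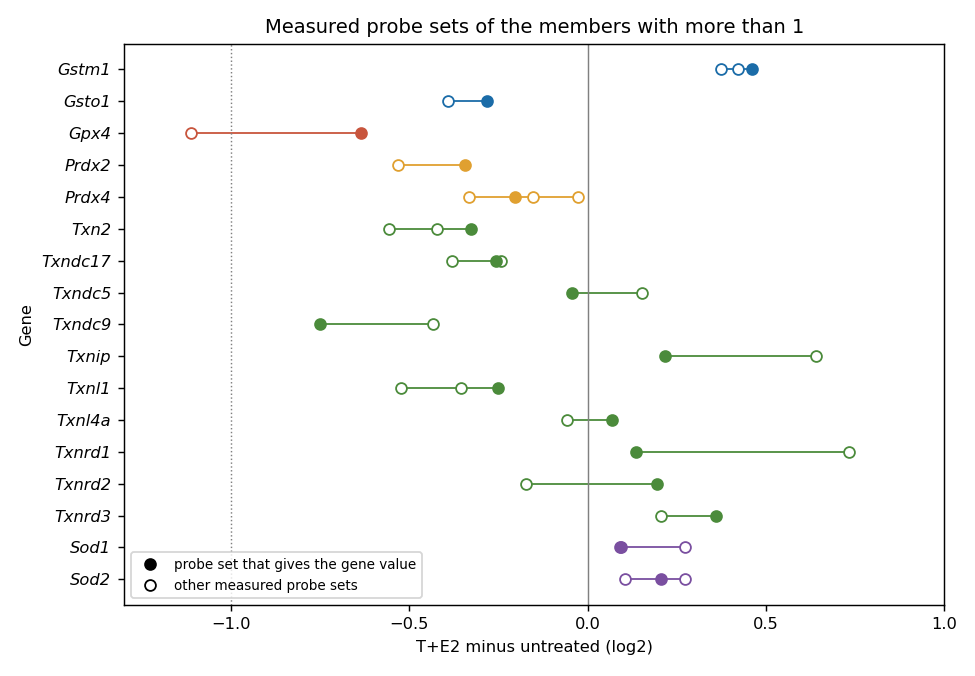
Log2 difference of each measured probe set for the 17 members with more than 1 (filled, the probe set that gives the gene value; open, the others); the dotted line marks 2-fold lower. Probe sets lie on both sides of 0 for 3 genes (Txndc5, Txnl4a and Txnrd2), and 1 probe set of Gpx4 passes 2-fold.

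Location in the cell, taken from textbook knowledge and grouped after the values were seen, cut across the classes. Of the 4 mitochondrial matrix proteins, Prdx3 and Txn2 were lower with T+E2 and Txnrd2 and Sod2 higher, with a median of -0.07. Of 8 measured proteins of the secretory pathway or the extracellular space, 5 were lower and 3 (Txndc11, Txndc16 and Sod3) higher, with a median of -0.10; of the lower ones, Gpx7 was at 0.00 without the trend on gene length. Selenoproteins, which carry selenocysteine at the active site, were split by class in the values as deposited. Of 5 measured, Gpx1 and Gpx4 were lower and the 3 reductases higher. That split did not hold without the trend on gene length, where Txnrd1 and Txnrd2 were also below 0 and Txnrd3 alone was above.

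Gene length moved with these differences. Across the 10248 measured genes with a genomic span, the distance from first to last base, the difference and the span correlated at a Spearman rho of 0.38, and across the 38 members at 0.24, as a description across genes that share the same 2 arrays. The members were short, with a median span of 13234 bases against 24436 for all. With a lowess trend on span removed, 1 member was still at least 2-fold higher and 3 at least 2-fold lower, but the median was -0.03 and 21 of 38 were below 0. Over all 10248 genes with a span, the median was then 0.01 and 4996 were below 0. The count over all genes turned from 509 higher and 412 lower to 303 and 433, and with the median of all genes subtracted it was 408 and 520.

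Removing the span trend moved the glutathione peroxidase median to -0.22 and the peroxiredoxin median to -0.17. All 3 peroxiredoxins and 3 of 4 peroxidases stayed below 0, with Gpx7 at 0.00. Gstm2, Gstm5 and Gstp1 passed to the other side of 0, and the cytosolic transferase median became 0.02. The superoxide dismutases stayed above 0 (median 0.32). The thioredoxin family median was -0.01 with the trend removed and 0.00 to 2 decimals, just under 0, after centring. What sets the trend was not tested.

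**Figure D4:**
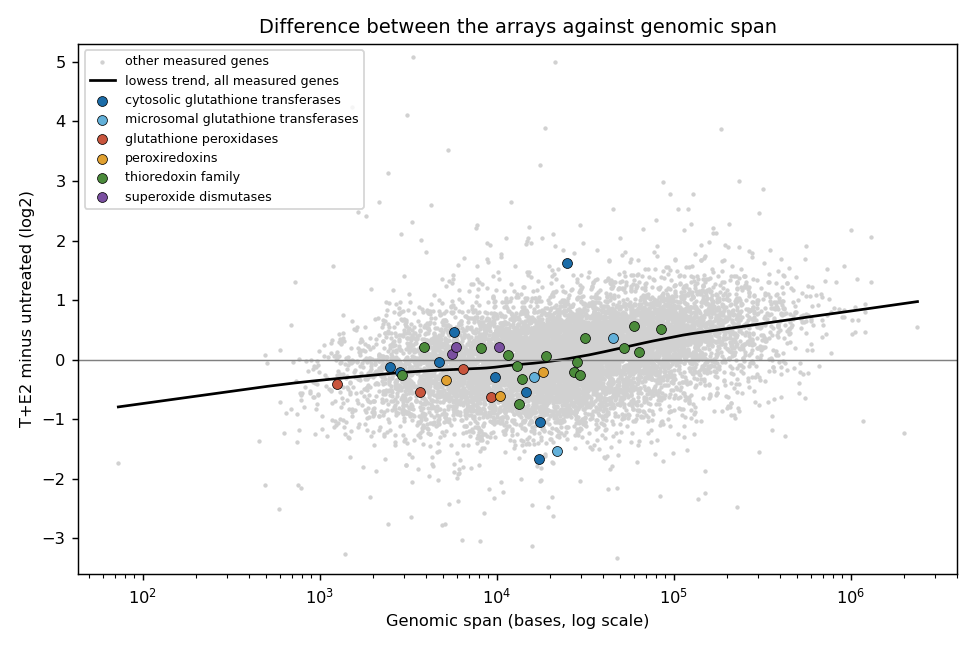
Log2 difference, T+E2 minus untreated, against genomic span (log scale) for the members (coloured by class) and the other measured genes (grey), with the lowess trend of all measured genes as a black line. The trend rises with span; Gsta3 lies far above it, and Gsta4, Mgst3 and Gstz1 far below.

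The genes that make and recycle glutathione showed differences in both directions. Of 18 measured, 2 (11.1%) were higher by 2-fold or more, 2 (11.1%) were lower by as much and 14 lay between. Over all measured genes the shares were 4.96% and 4.01%. Their median was 0.24. Dpep1, a dipeptidase that completes glutathione breakdown outside the cell, was at 8.08 untreated and 10.03 with T+E2 (1.96), with 0.37 from its other probe set. Chac2, which degrades glutathione in the cytosol, was at 8.55 and 7.47 (-1.08). The transporter genes Abcc4 (1.11) and Abcc5 (-1.12) went opposite ways, and without the span trend Abcc4 stood at 0.56 and Chac2 at -0.95, both under 2-fold. The 6 measured Abcc5 probe sets ran from -1.12 to 0.05.

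Among Nrf2, its regulators and its targets outside the member classes, 25 of 26 measured genes lay between. In this list 0 were higher by 2-fold and 1 (3.85%) was lower, against 4.96% and 4.01% of all measured genes. The median was 0.20. The lower gene was the carbonyl reductase Cbr1, at 11.74 and 10.55 (-1.19), which stood at -0.95 without the span trend. Of the list, 19 genes (73.1%) were above 0 and 7 (26.9%) below, against 55.8% and 43.7% of all measured genes. Named after their values were seen, targets lay on both sides. Gclm, the modifier subunit of the enzyme that starts glutathione synthesis, was at 0.80, with 0.31 from its other probe set. Gsr (glutathione reductase) was at 0.54 and Hmox1 (heme oxygenase) at 0.53. On the lower side were Blvrb (-0.97), Cbr3 (-0.88), Aox1 (-0.52) and the quinone reductase Nqo1 (-0.49). Nfe2l2, which encodes Nrf2, was at 11.87 and 12.06 (0.19), while its other measured probe set differed by 1.66, beyond 2-fold.

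Of 14 measured glutaredoxins, sestrins, methionine sulfoxide reductases and relatives, none reached 2-fold. Over all measured genes 4.96% were higher and 4.01% lower by 2-fold, so 0 of 14 lies near those shares. The list median was -0.14, with the reductase Msrb2 at -0.75 and the sestrin gene Sesn3 at 0.52 farthest out. Of 20 measured genes of selenoprotein synthesis and other selenoproteins, 13 (65%) were below 0, against 43.7% of all measured genes. Their median was -0.34, against 0.07 over all. Without the span trend, Selenop and Selenow passed above 0, at 0.05 and 0.06. In this list 0 genes were higher by 2-fold and 1 (5%) was lower by 2-fold, against 4.96% and 4.01% of all measured genes. The median lay further below 0 than that of the members (-0.14) in the values as deposited. The list median without the span trend was not computed. The gene lower by 2-fold was Pstk, the kinase that primes the selenocysteine transfer RNA, at 11.16 and 10.00 (-1.16).

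Sources of superoxide and hydrogen peroxide had 10 genes on the array and 5 measured. Of these 5, 2 (40%) were higher by 2-fold and 2 (40%) lower, against 4.96% and 4.01% of all measured genes. The list shares rest on 2 genes each. Xdh (xanthine dehydrogenase) was at 7.46 untreated and 8.86 with T+E2 (1.41). The NADPH oxidase gene Nox4 was at 7.22 and 8.39 (1.17), with its other probe set at 0.00, and it stood at 0.70 without the span trend. Cyba, the membrane subunit that NADPH oxidases need, was lower, at 11.86 and 10.56 (-1.31), as was the oxidase organiser Noxo1, at 7.92 and 6.86 (-1.06), which stood at -0.88 without the span trend. Maoa was at -0.19.

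Markers were checked on both arrays. Of 12 mesenchymal markers 9 were measured, with Vim, Col1a1, Col1a2 and Col3a1 at 14.53 or more, while Hoxa13, Hoxd13 and Thy1 were under the floor. The summed intensity of the list was 149032 untreated and 162919 with T+E2. Of the 9 measured markers, 8 were above 0 and 1 was below, Dcn, at 14.19 and 13.61 (-0.58). The lowest measured probe sets of Dcn and Col1a2 differed by -4.43 and -1.98. Of 11 epithelial markers on the array 2 were measured, and the list summed to an intensity of 337 and 583. The E-cadherin gene Cdh1 was at 5.37 and 7.57 (2.20), a larger difference than that of any member, and Trp63 at 7.99 and 8.46 (0.47), with the other 9, Epcam and the keratins among them, under the floor. Of 6 smooth muscle markers 2 were measured, Acta2 (0.13, with 1.53 from its other measured probe set) and Tagln (-1.43). Of 6 endothelial markers 1 was measured (Tek), and the list summed to 926 and 1062. Of 7 leukocyte markers 2 were measured (Cd14 and Lyz2), with Ptprc under the floor. The leukocyte list summed to 1162 untreated and 475 with T+E2, with Lyz2 lower by 1.53 on the log2 scale. The part of these cell types in the members' differences was not tested. In RNA from a whole culture, fewer cells of a type and less RNA per cell cannot be told apart. The 18 hybridization spike probe sets differed by -0.25 to 0.09 between the arrays, and 27 of the 38 members lay outside that range, as did 7932 of all 10267 measured genes.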

How the data were processed

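Total RNA was labelled as biotinylated cDNA and hybridised to 2 Affymetrix mouse arrays of 45101 probe sets. The deposited values are intensity values on a linear scale, and GCRMA, which corrects background by probe sequence, normalizes and summarises probes, is the method the submitters' processing notes name, without a version. Median intensities were 7.60 (untreated) and 6.12 (T+E2). Log2 was taken without further scaling, in Python 3.11.15 with pandas 2.3.3. Gene symbols came from the platform annotation, updated through RefSeq (GRCm38.p6), and each gene took the value of its brightest probe set, by the mean of the 2 arrays. Values under 5 (log2) were raised to 5 before a difference was formed. A log2 difference of 1 or more in size counted as 2-fold. The lowess trend on log10 span used statsmodels 0.14.6 with a fraction of 0.3. The counting was tested on simulated data.

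Members, gene lists and markers were chosen with earlier results of these data known. In each class, members at 2-fold, those farthest from 0 up to 4, and the one with the highest level were named in full, and the others more briefly. From each further list, up to 4 genes at 2-fold, or else the 2 farthest from 0, were named. The alternatives were another floor or none, the mean of all probe sets, centring, the span trend, and other choices of probe sets.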

Additional observations from a re-analysis of the deposited data

How the results depend on the processing

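No paired analysis was possible because each condition had 1 array, and no array could be left out for the same reason. Values of medians were taken as moved when they shifted by more than 0.12, the SD of the spike differences. With no floor all 55 members entered, most of the added ones near background: 2 were at least 2-fold higher, the median of the members turned to 0.0042, and the medians were -0.0048 for cytosolic transferases and -0.076 for glutathione peroxidases. With the mean of all probe sets, 0 members were counted at least 2-fold higher and 2 at least 2-fold lower, and the microsomal median was -0.14. Mgst3 left the lower count, at -0.76. Gsta3 left the higher count, at 0.63, a bound because its untreated mean was under the floor and was raised to it. The count of 0 therefore depends on the floor as well as on the averaging. With the span trend removed, the medians were 0.018 for cytosolic transferases, which turned, -0.22 for glutathione peroxidases and -0.17 for peroxiredoxins. Without probe sets ending in _x_at, _s_at or _a_at, Gstz1 had no probe set left and 2 members were at least 2-fold lower, and the medians were -0.59 for microsomal transferases and -0.47 for peroxiredoxins. The cause of these shifts was not tested beyond the way each alternative is built. A floor of 4, centring, and adding probe sets that name several genes left both counts unchanged and all medians within this limit. Centring takes the same 0.07 from every gene, so it could not move a median past the limit. The added probe sets brought in Prdx1 alone as a measured gene, so only the peroxiredoxin and all-member medians could move.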
